A study of Mus musculus with 18 samples.

Results

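The telomeric end of mouse chromosome 12, beyond the last variable (VH) gene segments of the immunoglobulin heavy chain locus (Igh), was examined for its contacts with the Igh intronic enhancer Eμ. In 4C-seq the DNA fragments ligated to a single bait fragment are amplified and sequenced, so that reads at a distant restriction fragment end count its ligation to the bait. Every fragment end listed from position 116026026 (mm10) to the end of the chromosome was taken, which gave 4184 ends of 440025 in the series and of 56916 on chromosome 12. The interval began 2.6 Mb from the bait (113426025 to 113426048) and its last listed end closed at 120028333. Of 183 annotated Ighv genes on chromosome 12, 0 lay in it. The farthest of them ended at 116009954, 16.1 kb before the interval. RefSeq places 46 genes there, of which 15 are protein-coding and 31 are other genes, 1 of them a miRNA gene.

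The libraries came from CD43-negative mature B cells of the spleen, fixed in formaldehyde, with 3 libraries in each of 6 groups: Med1 mutant and wild-type (WT) cells after 2 days with LPS and IL4, mutant and WT cells after 2 days with LPS alone, and mutant and WT resting cells. Med1 is a subunit of Mediator, the complex that links transcription factors at enhancers to RNA polymerase II. The genotype label reads Med1 mutant and the titles Med1KO, without an allele, a Cre driver or the animal behind a library, so p-values measure the spread between these libraries, which may be technical. No RNA was measured, and neither the loss of Med1 nor the identity of the cells could be checked. The WT titles of the resting and LPS+IL4 libraries read WTKO. Their genotype label, WT, was followed. For WT LPS+IL4 replicate 2 the growth label gives anti-CD40 and IL4 as the stimulus.

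Igh is read from the VH segments, on the telomeric side, towards the constant genes, on the centromeric side. Eμ lies between them and is active from the first stages of B cell development. In naive B cells LPS and IL4 start proliferation and switching to IgG1 and IgE, and LPS alone switching to IgG3 and IgG2b. The genes beyond the VH segments are not immunoglobulin genes. The telomeric interval therefore shows how far the contacts of the enhancer reach on the VH side past the locus itself.

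The bait was read with a pair of primers, given because each count is of a product of this inverse PCR.
Primer 1: tctgtcctaaaggctctgaga
Primer 2: gaacacagaagtatgtgtatgga

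A read is placed at the end of a DpnII fragment, beside a GATC. The promoters of the 5 genes with the most frequent or most changed contacts, or named in choosing the interval, are given so that the measured sites can be seen in sequence. Each runs 250 bases before to 50 bases after a RefSeq transcript start on the plus strand of GRCm38.p6 (mm10), with GATC in capitals. These starts lie inside the outer edge of the annotated gene by 10 bases in Zfp386, 0 in Rapgef5 (the first of 2 starts listed), 25 in Ptprn2, 306 in Vipr2 and 85 in Ncapg2, so that the Vipr2 stretch is within the annotated gene.
Zfp386 (chr12:116047474-116047773): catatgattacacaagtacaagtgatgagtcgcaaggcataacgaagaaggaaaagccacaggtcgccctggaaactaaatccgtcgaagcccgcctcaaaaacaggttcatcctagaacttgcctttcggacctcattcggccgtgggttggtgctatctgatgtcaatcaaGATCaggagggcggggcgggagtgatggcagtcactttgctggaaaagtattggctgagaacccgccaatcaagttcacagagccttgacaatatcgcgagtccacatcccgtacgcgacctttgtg
Rapgef5 (chr12:117516276-117516575): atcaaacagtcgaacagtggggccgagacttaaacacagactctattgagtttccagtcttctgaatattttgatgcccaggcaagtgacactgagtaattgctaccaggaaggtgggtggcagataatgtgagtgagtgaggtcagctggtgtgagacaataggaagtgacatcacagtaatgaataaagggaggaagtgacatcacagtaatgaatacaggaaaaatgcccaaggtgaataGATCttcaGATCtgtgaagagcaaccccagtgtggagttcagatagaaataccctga
Ptprn2 (chr12:116485470-116485769): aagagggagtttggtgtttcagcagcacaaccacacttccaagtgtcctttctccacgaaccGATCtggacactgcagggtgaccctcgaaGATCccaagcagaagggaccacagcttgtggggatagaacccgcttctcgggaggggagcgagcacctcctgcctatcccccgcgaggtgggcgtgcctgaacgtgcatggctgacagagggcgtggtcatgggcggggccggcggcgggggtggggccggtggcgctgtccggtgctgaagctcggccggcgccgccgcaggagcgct
Vipr2 (chr12:116077476-116077775): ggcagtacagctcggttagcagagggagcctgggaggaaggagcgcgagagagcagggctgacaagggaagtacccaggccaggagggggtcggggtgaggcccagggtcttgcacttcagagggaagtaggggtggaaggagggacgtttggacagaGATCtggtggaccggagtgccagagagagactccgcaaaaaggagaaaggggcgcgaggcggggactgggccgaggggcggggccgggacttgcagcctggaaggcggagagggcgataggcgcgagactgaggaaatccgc
Ncapg2 (chr12:116405186-116405485): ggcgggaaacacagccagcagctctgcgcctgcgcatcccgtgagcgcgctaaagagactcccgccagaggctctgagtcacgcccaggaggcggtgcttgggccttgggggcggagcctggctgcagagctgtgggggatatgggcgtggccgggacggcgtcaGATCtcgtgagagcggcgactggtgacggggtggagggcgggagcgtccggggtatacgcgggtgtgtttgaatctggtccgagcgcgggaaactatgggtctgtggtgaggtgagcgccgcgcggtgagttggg

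In the Zfp386 promoter the ends on either side of its only GATC, 116047623 and 116047651, were covered in 6 and 7 of the 18 libraries, and 10 libraries covered at least 1 of them. The Rapgef5 promoter end at 117516495, beside the first of 2 GATC sites, was covered in 5 libraries. The Ptprn2 end at 116485508 was covered in 3 libraries. The Vipr2 end at 116077610 and the Ncapg2 end at 116405355 were covered in 2 each. The Zfp386 promoter was thus covered in the most libraries of the 5, but with 2 covered ends against 1 in each of the others. GATC, a palindrome that reads alike on both strands, occurred in 71.43% of the 28 telomeric promoters and in 47.14% of the 1277 promoters of chromosome 12, and all 269 listed ends inside these promoters had GATC directly beside them.

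The 12 resting and LPS+IL4 libraries held 2470497 to 21074434 reads, of which 1016043 to 10193114 lay on chromosome 12 over 5 kb from the bait. The 6 LPS libraries list covered ends (47312 to 65512) without counts, so their depth is unknown. Their later deposit and their culture cannot be told apart. Except for mutant LPS+IL4 replicate 2, the deepest library, every mutant library was shallower (at most 3378893 reads) than every WT library (at least 3738095 reads). An unlabelled division into 2 sets of libraries was also present. At 87 ends within 300 kb of the bait, mutant replicates 2 and 3 and WT replicate 3 placed 4.27% to 6.49% of their chromosome 12 reads, and mutant replicate 1 and WT replicates 1 and 2 at most 0.0104%. These ends were chosen for at least 50 reads in 5 or more libraries of the former and under 50 in all of the latter. The direction of the difference follows from that choice. Mutant LPS+IL4 replicate 1 stood apart from the other activated libraries in the telomeric interval. Several results, though not all, are given with and without it.

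After 2 days with LPS and IL4 the telomeric share of chromosome 12 reads was roughly double that at rest in both genotypes. Resting cells were of day 0, so the stimulus and the time in culture cannot be told apart. Chromosome 12 as a whole held on average 56.2% of reads in mutant and 57.3% in WT LPS+IL4 libraries. At rest it held 48.2% in mutant and 48.1% in WT libraries. The share of the interval, as a percentage of the chromosome 12 reads over 5 kb from the bait, was 1.83%, 2.78% and 2.92% in Med1 mutant LPS+IL4 cells, against 1.49%, 1.01% and 1.39% in mutant resting cells. In WT cells it was 2.91%, 3.31% and 3.13% with LPS and IL4, against 1.53%, 1.37% and 1.41% at rest. The groups did not overlap in either genotype, although mutant LPS+IL4 replicate 1 lay between the resting libraries and the other activated ones.

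**Figure D1:**
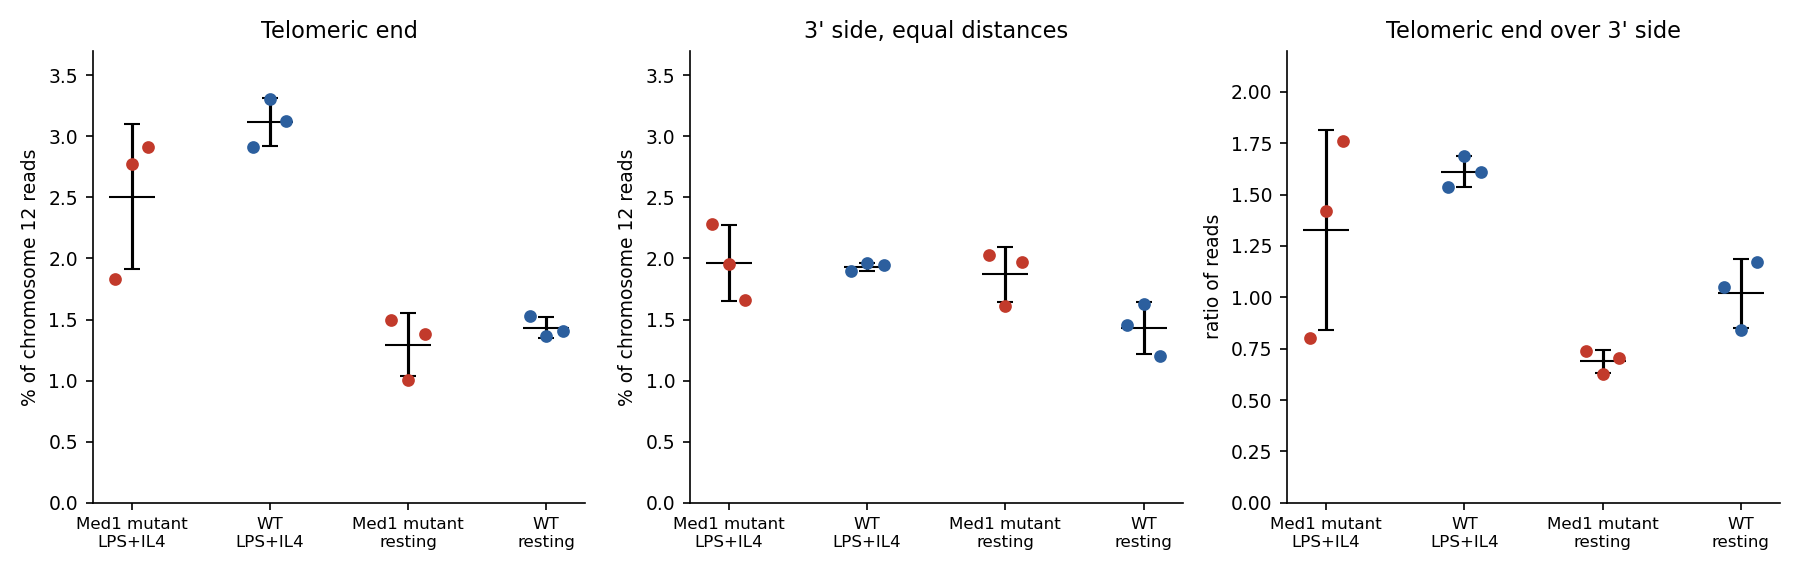
Reads of each library (points) in the telomeric end and at equal distances on the 3' side, as a percentage of chromosome 12 reads over 5 kb from the bait, and the ratio of the reads. Bars are mean ± SD over 3 libraries per group. The telomeric share is higher in LPS+IL4 than in resting libraries in both genotypes.

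In mutant cells the telomeric share averaged 2.51% ± 0.592 with LPS and IL4 and 1.30% ± 0.256 at rest (SD, n = 3 each). The log2 change was 0.95 ± 0.17 (SE, normal 95% confidence interval 0.61 to 1.29, edgeR quasi-likelihood test, adjusted p = 1.2e-06 over 30 segments of chromosome 12). Without mutant LPS+IL4 replicate 1 it was 1.14 (adjusted p = 2.15e-11). In WT cells the share averaged 3.11% ± 0.198 with LPS and IL4 and 1.43% ± 0.0839 at rest, a log2 change of 1.12 ± 0.175 (interval 0.777 to 1.463, adjusted p = 2.4e-08). Without WT LPS+IL4 replicate 2, the library whose growth label names anti-CD40, it was 1.08 (adjusted p = 1.75e-05). The edgeR SE pools the spread of all groups and is moderated over the 30 segments. It was therefore nearly equal in both genotypes, although the mutant LPS+IL4 shares were more spread (SD 0.592 against 0.198). The mutant interval may thus be too narrow and its adjusted p too small. The exact permutation test over libraries, which does not use that SE, gave p = 0.1 in each genotype, the smallest that 3 against 3 allows. Both genotypes together, with the condition permuted within genotype, gave a log2 change of 1.03 (exact permutation p = 0.005, the smallest of 400 arrangements), a test added after the values were seen.

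Many parts of the chromosome changed with activation. In mutant cells 40% of the 30 segments passed the test in either direction and 6.67% rose, and in WT cells 50.0% passed and 23.3% rose. The telomeric end had the highest estimate of the 30 in mutant cells and the third highest in WT cells. It was one of 2 rising segments in mutant cells and one of 7 in WT cells. The other in mutant cells lay on the 3' side, 18.6 to 22.6 Mb from the bait (log2 change 0.75, edgeR adjusted p = 0.0147). The segments with higher WT estimates also lay on the 3' side. They were at 6.6 to 10.6 Mb (1.22, edgeR adjusted p = 2.0e-07) and 14.6 to 18.6 Mb (1.39, adjusted p = 8.1e-06). A rise with activation was thus not particular to the telomeric side.

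The same distances from the bait on the 3' side, from 106823740 to 110826024 with 3293 listed ends, were compared with the telomeric end. Their share was 2.28%, 1.96% and 1.66% in mutant LPS+IL4 cells, against 2.03%, 1.61% and 1.97% in mutant resting cells (log2 change 0.07 ± 0.18, edgeR adjusted p = 0.767). In WT cells it was 1.90%, 1.96% and 1.94% with LPS and IL4, against 1.46%, 1.63% and 1.20% at rest (log2 change 0.44 ± 0.18, adjusted p = 0.0332). By share of reads the mutant groups overlapped on the 3' side at these distances, whereas they did not in the telomeric end.

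The ratio of telomeric to 3' reads does not depend on the library total. It was 0.801, 1.42 and 1.76 in mutant LPS+IL4 cells and 1.53, 1.69 and 1.61 in WT LPS+IL4 cells, against 0.737, 0.625 and 0.703 in mutant resting cells and 1.05, 0.840 and 1.17 in WT resting cells. All 6 activated libraries but mutant LPS+IL4 replicate 1 lay above every resting library. The log2 ratio was higher after activation by 0.88 in mutant and 0.67 in WT cells (exact permutation p = 0.1 each). With both genotypes together it was higher by 0.77 (exact permutation p = 0.005, 400 arrangements, also added after the values were seen). Over all 12 libraries the mean log2 ratio was 0.12, a departure from 0 that did not pass the test (exact sign-flip permutation p = 0.446). Per listed end it was -0.22 (exact sign-flip permutation p = 0.183), since more ends are listed on the telomeric side. Ends are listed only where a library covered them, so this divisor itself contains contact and does not correct for the number of sites.

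Genotype differences in the telomeric share did not pass the test. After LPS and IL4 the mutant mean of 2.51% stood against 3.11% in WT cells, a log2 difference of -0.31 ± 0.17 (interval -0.65 to 0.026, edgeR adjusted p = 0.714, unadjusted p = 0.0714). Without mutant LPS+IL4 replicate 1 the difference was -0.13 (adjusted p = 0.984). At rest the mutant mean of 1.30% stood against 1.43%, a log2 difference of -0.15 ± 0.17 (interval -0.48 to 0.19, adjusted p = 0.801). Of the 30 segments 0.0% passed after LPS and IL4 and 10% at rest.

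The activation changes of mutant and WT cells differed by -0.17 ± 0.24 on the log2 scale (interval -0.65 to 0.31, edgeR adjusted p = 0.865), and by 0.02 without mutant LPS+IL4 replicate 1. Over both conditions the log2 difference between mutant and WT shares was -0.25 (exact permutation of genotype within condition, p = 0.075), lower in the mutant in 2 of 2 conditions. Without mutant LPS+IL4 replicate 1 it was -0.15 (exact permutation p = 0.145), and without mutant resting replicate 2 -0.17 (p = 0.175). Within the first library set the log2 difference was 0.049 at rest and -0.763 with LPS and IL4, and within the second -0.251 and -0.137. The first set holds 1 mutant and 2 WT libraries per condition, its activated mutant library being replicate 1, and the second set 2 mutant and 1 WT.

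The ratio of telomeric to 3' reads separated the genotypes at rest. It averaged 0.688 ± 0.0575 in mutant and 1.02 ± 0.167 in WT resting cells (SD, n = 3 each), without overlap, a log2 difference of -0.56 (exact permutation p = 0.1, the smallest possible). Within the first and second library sets it was -0.348 and -0.821. This ratio combines a telomeric mean that was slightly lower in the mutant with a 3' mean of 1.87% ± 0.226 in mutant against 1.43% ± 0.215 in WT cells. After LPS and IL4 the ratio averaged 1.33 ± 0.486 in mutant and 1.61 ± 0.0756 in WT cells, a log2 difference of -0.35 (exact permutation p = 0.5). Within the sets it was -1.005 and -0.028, so that replicate 1 held nearly all of it.

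Covered ends, which all 18 libraries list, show how widely the contacts were spread. With LPS and IL4 405, 939 and 767 telomeric ends were covered in mutant and 758, 749 and 711 in WT cells. With LPS alone 421, 565 and 392 were covered in mutant and 630, 496 and 742 in WT cells. At rest 231, 180 and 249 were covered in mutant and 281, 220 and 277 in WT cells. Every activated library, with either stimulus, covered more telomeric ends than any resting library. The difference remained when each of the 12 libraries with counts was thinned to 1016043 reads, with 380, 736 and 742 ends in mutant and 697, 712 and 643 in WT LPS+IL4 cells, against 231, 178 and 247 in mutant and 234, 207 and 265 in WT resting cells. Thinned counts at equal distances on the 3' side rose too. They were 376, 554 and 490 in mutant and 478, 446 and 441 in WT LPS+IL4 cells. Resting cells had 286, 244 and 278 in mutant and 232, 224 and 236 in WT libraries, without overlap.

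**Figure D2:**
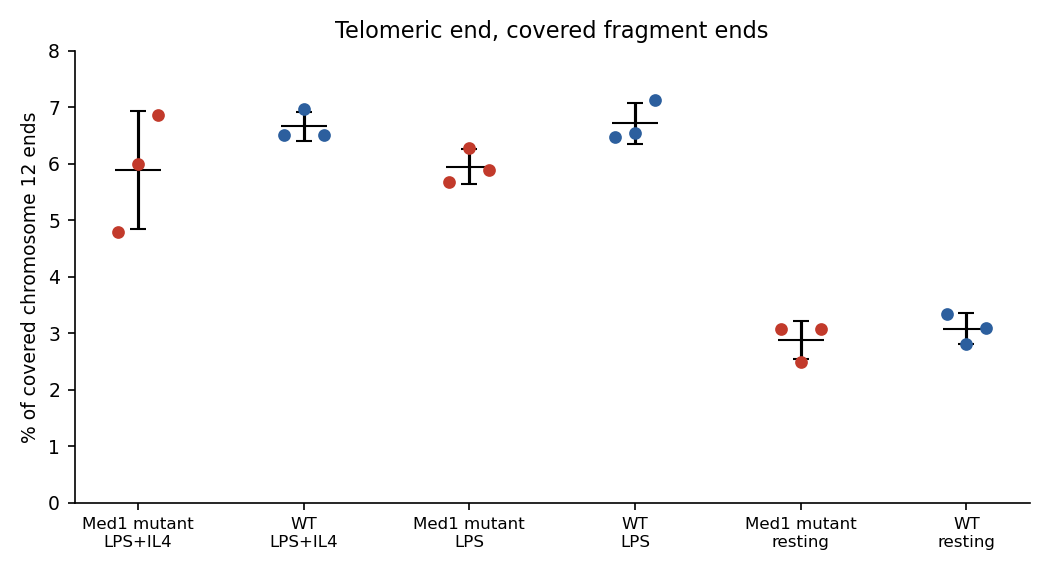
Covered telomeric ends of each library (points) as a percentage of its covered chromosome 12 ends over 5 kb from the bait, with mean ± SD over 3 libraries per group. Activated cultures with either stimulus lie between 4.79% and 7.13%, and resting libraries between 2.49% and 3.34%.

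As a percentage of covered chromosome 12 ends, the telomeric end made up 5.88% ± 1.04 in mutant and 6.66% ± 0.262 in WT cells with LPS and IL4 (SD, n = 3 each). With LPS alone it made up 5.95% ± 0.31 in mutant and 6.72% ± 0.362 in WT cells, and at rest 2.88% ± 0.334 in mutant and 3.08% ± 0.27 in WT cells. Single libraries ran between 4.79% and 6.96% with LPS and IL4, between 5.68% and 7.13% with LPS alone and between 2.49% and 3.34% at rest. The activated libraries thus all lay above the resting ones, but LPS and resting libraries belong to different deposits and no test was made between them. Equal distances on the 3' side made up 4.60% ± 0.0836 in mutant and 4.46% ± 0.0295 in WT LPS+IL4 cells. Resting cells had 3.59% ± 0.189 in mutant and 3.01% ± 0.222 in WT libraries there, also without overlap. LPS alone gave 3.46% ± 0.361 in mutant and 3.83% ± 0.221 in WT cells on that side. The 10 most frequent ends held 13.3% of telomeric reads in mutant and 10.7% in WT LPS+IL4 cells, against 27.7% in mutant and 24.6% in WT resting cells. Reads were spread over more ends after activation.

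In the LPS cultures the mutant shares of covered ends, 5.68%, 6.29% and 5.89%, all lay below the WT shares, 6.47%, 6.55% and 7.13%. The log2 difference was -0.17 ± 0.09 (interval -0.35 to 0.0039, limma, unadjusted p = 0.0778, adjusted p = 0.795), and the exact permutation p was 0.1, the smallest possible. Of the 30 segments 0.0% passed this test. The ratio of covered telomeric to covered 3' ends was 1.73 ± 0.135 in mutant and 1.76 ± 0.0947 in WT LPS cells (exact permutation p = 0.8).

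With genotype permuted within each of the 3 conditions, the share of covered ends was lower in the mutant by a log2 difference of -0.16 (exact permutation p = 0.0278, 8000 arrangements), in 3 of 3 conditions. The p rose above 0.05 without mutant resting replicate 2 (0.064), WT resting replicate 1 (0.0645) or WT LPS+IL4 replicate 2 (0.067). Shares of covered ends can move with depth, which was lower in most mutant libraries. Over the resting and LPS+IL4 libraries alone the difference was -0.15 (exact permutation p = 0.155), and -0.14 with each library thinned to the same number of reads (exact permutation p = 0.2). The LPS libraries, without counts, could not be thinned.

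Single fragment ends recurred rarely. Of the 4184 telomeric ends 2186 were covered in 1 library only and 2 in all 18. With LPS and IL4 59 of the 1730 ends covered in any mutant library were covered in all 3, and 66 of 1793 in WT cells. With LPS alone it was 40 of 1155 in mutant and 50 of 1499 in WT cells, and at rest 10 of 613 in mutant and 13 of 677 in WT cells. A single end is therefore no reliable measure, and results rest on sums over windows, genes or the whole interval.

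Recurrence across cultures was also partial. Of the ends covered in mutant LPS libraries 425 were also covered in mutant LPS+IL4 libraries, 36.8% of the LPS ends and 24.6% of the LPS+IL4 ends. In WT cells 538 were shared, 35.9% of the LPS and 30.0% of the LPS+IL4 ends. Between LPS+IL4 and resting cells 273 ends were shared in mutant cells (15.8% of the LPS+IL4 and 44.5% of the resting ends), and 326 in WT cells (18.2% and 48.2%).

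The ends with the most reads lay at 2 places. The end at 117566366 to 117566389, in the body of Rapgef5, averaged 171 CPM (reads scaled to 1000000 chromosome 12 reads over 5 kb from the bait) over the 12 libraries and was covered in 8 of them and in 0 of the 6 LPS libraries. The end at 116045454 to 116045477, next to Zfp386, averaged 152 CPM, was covered in 8 of the 12 and in all 6 LPS libraries. The end at 116047383, before the Zfp386 start, averaged 138 CPM, and 2 more in Rapgef5, at 117560075 and 117564895, averaged 107 and 100.4 CPM. Rapgef5, a guanine nucleotide exchange factor for Rap GTPases, and the surroundings of Zfp386, a zinc finger protein gene, thus held all 5.

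Contacts were unevenly laid along the interval, and did not simply fade with distance. The profile had a first stretch of high contact from Zfp386 to Ncapg2, low contact over the body of Ptprn2, a peak at Rapgef5, a smaller one at Sp4 and little beyond. These stretches were drawn after the profile was seen and are described without a test.

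**Figure D3:**
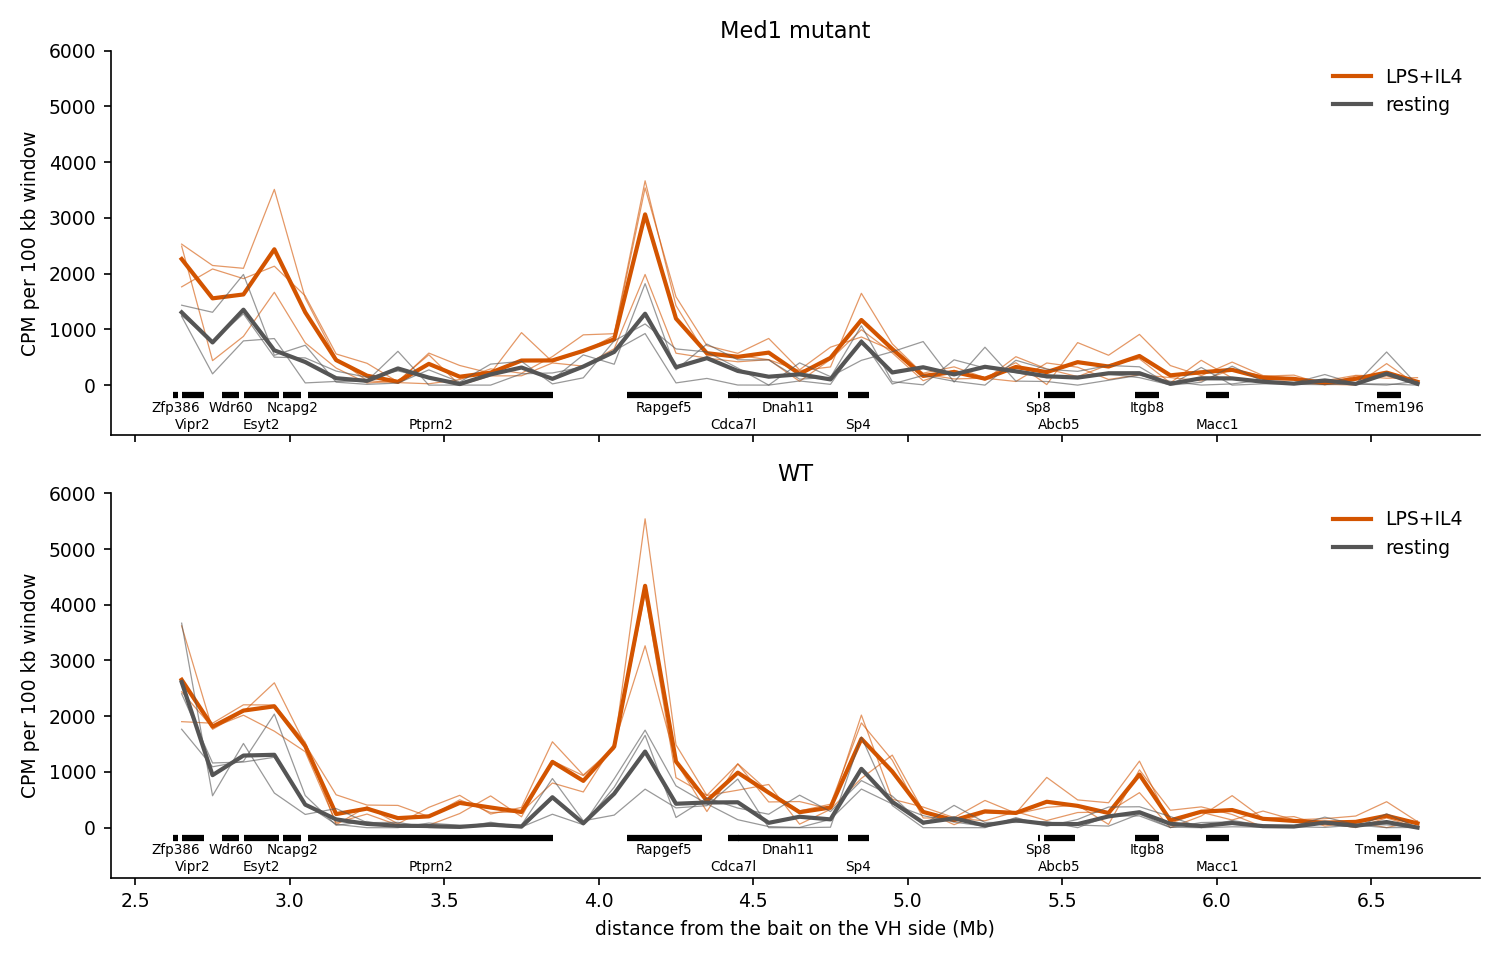
CPM per 100 kb window along the telomeric end by distance from the bait, for LPS+IL4 and resting cells of each genotype (thin lines, libraries; thick lines, means of 3), with the 15 protein-coding genes as bars. The highest window after activation in both genotypes covers Rapgef5, at a mean of 3064 CPM in mutant and 4339.6 CPM in WT LPS+IL4 cells.

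The first stretch, 0.46 Mb from Zfp386 to Ncapg2, held 0.907% ± 0.268 of chromosome 12 reads in mutant and 1.01% ± 0.107 in WT LPS+IL4 cells, against 0.443% ± 0.144 in mutant and 0.646% ± 0.0224 in WT resting cells. The next 1.03 Mb, over Ptprn2 and beyond it, held 0.383% ± 0.115 in mutant and 0.556% ± 0.0497 in WT LPS+IL4 cells, against 0.223% ± 0.0109 in mutant and 0.17% ± 0.00589 in WT resting cells. In the mutant the LPS+IL4 mean was 1.72 times the resting mean over Ptprn2 and 2.04 times in the first stretch. In WT cells it was 3.27 times over Ptprn2 and 1.56 times in the first stretch.

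From Rapgef5 to Sp4, over 0.785 Mb, the share was 0.754% ± 0.194 in mutant and 0.941% ± 0.0687 in WT LPS+IL4 cells, against 0.337% ± 0.143 in mutant and 0.401% ± 0.056 in WT resting cells. Beyond Sp4, over 1.73 Mb, it was 0.464% ± 0.11 in mutant and 0.609% ± 0.0935 in WT LPS+IL4 cells, against 0.292% ± 0.0583 in mutant and 0.216% ± 0.0219 in WT resting cells. Per 100 kb the WT LPS+IL4 levels of the 4 stretches were 2196, 539, 1199 and 352 CPM in order of distance. The third stretch, farther from the bait than the second, was read more densely per 100 kb. Listed ends numbered 991, 929, 1041 and 1223 in the same order. An end is listed only if at least 1 of the 18 libraries covered it, so these numbers depend on contact as well as on sites. WT LPS+IL4 libraries covered on average 23.5%, 14.75%, 18.4% and 14.55% of the listed ends. Because the list itself follows contact, these percentages do not correct for the density of sites.

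Of the 41 windows of 100 kb, 37 had a positive log2 change on activation in mutant cells and 39 in WT cells. The median change was 1.02 in mutant cells, against -0.16 over all 1125 windows of chromosome 12, and 1.57 in WT cells, against 0.01 over all. TMM factors move the median over all windows to 0.04 in mutant and -0.12 in WT cells, with 37 of the 41 telomeric changes positive in each. With edgeR 0 telomeric windows passed in mutant cells, against 0.267% of all windows in either direction, and 1 passed in WT cells, against 0.533%. At an unadjusted p under 0.05 there were 6 in mutant cells, against 10.6% of all windows, and 7 in WT cells, against 12.6%. DESeq2 called 2 in mutant cells, against 4.89% of all windows, and 3 in WT cells, against 5.51%. The median SE of a window's change was 1.23 in mutant and 1.37 in WT cells, so that single windows were poorly resolved.

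The window called in WT cells, from 117326026 to 117426025 between Ptprn2 and Rapgef5, holds no protein-coding gene. Mutant cells had 341, 902 and 601 CPM with LPS and IL4, against 131, 327 and 542 CPM at rest, where the groups overlap (log2 change 0.88 ± 0.64, edgeR adjusted p = 0.706). WT cells had 933, 641 and 946 CPM with LPS and IL4, against 53.2, 123 and 60.4 CPM at rest, without overlap (3.41 ± 0.70, adjusted p = 0.0415). The WT call was lost when any one of the 6 WT libraries was left out.

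Groups that did not overlap were more frequent than single calls. In mutant cells 8 of the 41 windows had all 3 activated libraries above all 3 resting ones, against 6.49% of all windows, and in WT cells 20 of 41, against 10.5%. In windows of 500 kb, a length added after the values were seen, 4 of 9 rose in mutant cells, against 2.55% of 235, and 6 of 9 in WT cells, against 6.38%. The first of these 9 windows begins 100 kb before the interval.

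The highest window covered the 5' part of Rapgef5, from 117526026 to 117626025. Mutant cells had 1985, 3667 and 3539 CPM with LPS and IL4, against 1097, 925 and 1821 CPM at rest (log2 change 1.26 ± 0.38, edgeR adjusted p = 0.245). WT cells had 4212, 3264 and 5542 CPM with LPS and IL4, against 1657, 691 and 1750.2 CPM at rest (log2 change 1.67 ± 0.39, adjusted p = 0.0931). Neither genotype's groups overlapped, and neither change passed over all windows.

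The first window, from 116026026 to 116126025 over Zfp386 and the start of Vipr2, departed from the pattern in WT cells. Mutant cells had 2493.5, 2530.0 and 1763 CPM with LPS and IL4, against 1434, 1233 and 1250.0 CPM at rest (log2 change 0.79 ± 0.31, edgeR adjusted p = 0.387). WT cells had 2437.6, 3621 and 1902.5 CPM with LPS and IL4, against 3669.8, 2403 and 1767 CPM at rest (0.02 ± 0.31, adjusted p = 0.992). The mutant resting libraries all lay below the WT resting libraries (log2 difference -1.001 ± 0.31, unadjusted p = 0.00638, adjusted p = 0.374).

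The window from 116326026 to 116426025, over Esyt2 and the start of Ncapg2, averaged 2437 CPM in mutant and 2178 CPM in WT LPS+IL4 cells, against 624 CPM in mutant and 1308 CPM in WT resting cells. Its log2 change was 1.97 ± 0.43 in mutant cells (edgeR adjusted p = 0.0838) and 0.74 ± 0.42 in WT cells (adjusted p = 0.45). The pair of windows that share Wdr60, which encodes a subunit of the ciliary dynein-2 motor, averaged 1557 and 1627 CPM in mutant and 1813 and 2101 CPM in WT LPS+IL4 cells. At rest they averaged 766 and 1353 CPM in mutant and 942 and 1294 CPM in WT cells. The last window, which holds 2 listed ends, averaged 58.4 CPM in mutant and 76.9 CPM in WT LPS+IL4 cells, against 23.4 CPM in mutant and 1.37 CPM in WT resting cells.

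Between genotypes 0 of the 41 windows passed in either condition (edgeR, 0.0% of 1125 windows in each). At an unadjusted p under 0.05 there were 5 at rest, against 9.69% of all windows, and 0 with LPS and IL4, against 5.16%. DESeq2 called 4 (5.33% of all windows) and 0 (0.978%). At rest 2 windows were higher and 2 lower in mutant libraries without overlap, against 7.38% and 3.82% of all windows. With LPS and IL4 0 were higher and 3 lower, against 4.8% and 5.51%. The median log2 difference was 0.10 at rest, against 0.17 over all windows. With LPS and IL4 it was -0.29, against 0.02 over all, and -0.07 without mutant LPS+IL4 replicate 1. With TMM factors the resting median over all windows was -0.19, and 16 of the 41 telomeric differences were positive, against 24 without them.

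In the LPS cultures 0 of 36 windows with enough covered ends passed (limma, 0.0% of 313), and 1 had an unadjusted p under 0.05, against 1.6% of all. The log2 difference of mutant over WT was below 0 in 26 of the 36, with a median of -0.14, against -0.0083 over all 313. The first window had 35, 46 and 29 covered ends in mutant and 50, 43 and 61 in WT LPS cells, and the Rapgef5 window 31, 50 and 26 in mutant and 38, 38 and 65 in WT LPS cells. The groups overlapped in both.

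Each end was also assigned to its nearest protein-coding gene, by body or nearest edge. Of the 15 genes 14 had a positive log2 change on activation in each genotype, with a median of 1.02 in mutant cells, against -0.23 over all 653 genes of the chromosome, and 1.23 in WT cells, against -0.07 over all. With TMM factors 15 estimates were positive in mutant and 14 in WT cells. In mutant cells 1 gene passed (edgeR), higher after activation, against 1.99% of all genes in either direction and 0.613% higher. In WT cells 2 passed, both higher, against 3.22% and 1.23%. With covered ends 13 of 15 rose in each genotype, against 10.9% of 348 genes in mutant and 13.2% in WT cells. Of the 15, 13 reached the minimum of 5 covered ends in the resting libraries alone. DESeq2 called 5 genes in mutant cells, against 5.51% of all genes, and 5 in WT cells, against 7.96%. Between the genotypes the activation changes of single genes were not tested against each other.

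**Figure D4:**
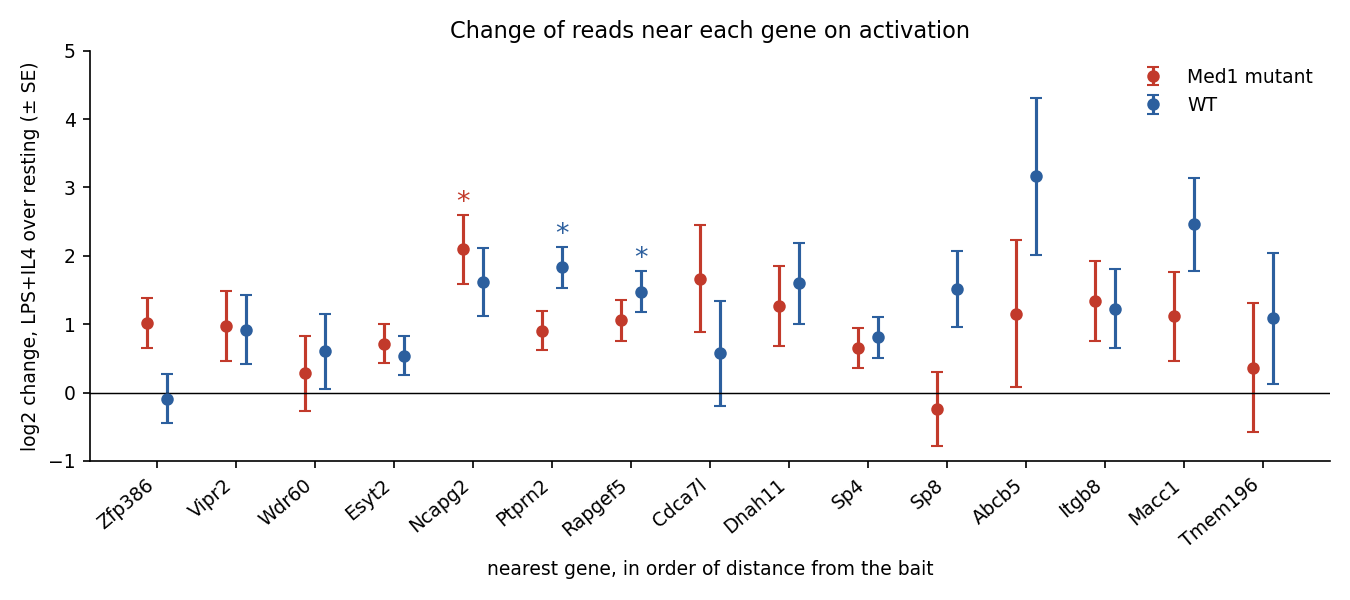
Log2 change (± SE, edgeR) of the reads nearest each of the 15 protein-coding genes, LPS+IL4 over resting, in order of distance from the bait, for Med1 mutant and WT cells. Asterisks mark an adjusted p under 0.05 over 653 genes: Ncapg2 in the mutant, and Ptprn2 and Rapgef5 in WT cells.

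Zfp386 (116047714 to 116063231) is the gene nearest the VH segments. In mutant cells it had 1932, 2118 and 1475 CPM with LPS and IL4, against 758, 1196 and 778 CPM at rest, without overlap (log2 change 1.02 ± 0.36, edgeR adjusted p = 0.206). WT cells had 1427.5, 2736 and 1615 CPM with LPS and IL4, against 2937, 1963 and 1258.5 CPM at rest, with overlap (-0.09 ± 0.36, adjusted p = 0.981). At rest the mutant libraries lay below all WT libraries (log2 difference -1.17 ± 0.36, adjusted p = 0.289), a difference that DESeq2 called (-1.30, adjusted p = 0.0332).

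Vipr2 (116077420 to 116148637) encodes a receptor for vasoactive intestinal peptide. The mutant libraries had 736, 1712 and 1776 CPM with LPS and IL4, against 1154.5, 155 and 839 CPM at rest, with overlap (log2 change 0.98 ± 0.51, edgeR adjusted p = 0.433). WT libraries had 2204.5, 2173.5 and 1622 CPM with LPS and IL4, against 1002, 1057 and 1115 CPM at rest, without overlap (0.92 ± 0.51, adjusted p = 0.402).

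Esyt2 (116279283 to 116390935) encodes a tether between the endoplasmic reticulum and the plasma membrane. In mutant cells it had 1447, 2621 and 2304.5 CPM with LPS and IL4, against 1337, 1135 and 1411 CPM at rest (log2 change 0.71 ± 0.29, edgeR adjusted p = 0.297). WT cells had 2522, 2352 and 3069.8 CPM with LPS and IL4, against 1694.5, 1729 and 2049.9 CPM at rest (0.54 ± 0.29, adjusted p = 0.384). The groups did not overlap in either genotype, and neither change passed.

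Ncapg2 (116405351 to 116463532), a subunit of condensin II, which compacts chromosomes at mitosis, was the gene called in the mutant. It had 1751, 3251 and 2384 CPM in mutant LPS+IL4 cells, against 864, 253 and 612 CPM in mutant resting cells (log2 change 2.10 ± 0.50, edgeR adjusted p = 0.0307). In WT cells it had 1880.2, 2420.1 and 2013 CPM with LPS and IL4, against 332, 406 and 1323 CPM at rest (1.62 ± 0.49, adjusted p = 0.0866). The activated and resting libraries did not overlap in either genotype. Its adjusted p in the mutant was 0.133 and 0.0765 without resting replicates 2 and 3, and 0.137 and 0.0742 without LPS+IL4 replicates 2 and 3, so that each of these 4 libraries decided the call.

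Ptprn2 (116485695 to 117278167), a phosphatase-like protein of dense-core secretory vesicles, spans 792.5 kb, the longest gene of the interval. In mutant cells it had 2041, 2818 and 4219 CPM with LPS and IL4, against 1706, 1458 and 1678 CPM at rest (log2 change 0.91 ± 0.29, edgeR adjusted p = 0.156). WT cells had 3279, 4033 and 4303.5 CPM with LPS and IL4, against 1025, 1406 and 834 CPM at rest (1.83 ± 0.30, adjusted p = 8.1e-04). The activated and resting libraries did not overlap in either genotype, and the WT call held in all 6 fits without 1 WT library (adjusted p 0.00149 to 0.00677). At rest the mutant libraries lay above the WT ones (log2 difference 0.57 ± 0.29, adjusted p = 0.595).

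Rapgef5 (117516526 to 117759737) had the most reads of the 15 genes in each group. Mutant cells had 3631, 6790.1 and 6889 CPM with LPS and IL4, against 3095, 1729.7 and 3489 CPM at rest (log2 change 1.06 ± 0.30, edgeR adjusted p = 0.0792). WT cells had 7600.2, 6705.0 and 9456 CPM with LPS and IL4, against 3094, 1737 and 3718 CPM at rest (1.47 ± 0.30, adjusted p = 0.0090). The groups did not overlap in either genotype, by a small gap in the mutant, where LPS+IL4 replicate 1 lay just above the highest resting library. The WT call held in all 6 fits without 1 WT library (adjusted p 0.00699 to 0.0499). In the mutant 1 of 6 fits without 1 mutant library passed, that without LPS+IL4 replicate 1 (log2 change 1.30, edgeR adjusted p = 0.0366).

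Sp4 (118231686 to 118301440) encodes a zinc finger transcription factor of the Sp family. In mutant cells it had 1888, 2626 and 1905 CPM with LPS and IL4, against 1041, 1886 and 1156 CPM at rest (log2 change 0.65 ± 0.30, edgeR adjusted p = 0.368). WT cells had 3426, 3218 and 2503 CPM with LPS and IL4, against 1848, 2032 and 1338.5 CPM at rest (0.81 ± 0.30, adjusted p = 0.183). The mutant groups were barely separated, and neither change passed.

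The other 8 genes, Wdr60, Cdca7l, Dnah11, Sp8, Abcb5, Itgb8, Macc1 and Tmem196, passed in neither genotype. Among them are Dnah11, a heavy chain of the axonemal dynein motor, Abcb5, an ABC transporter, and Itgb8, an integrin beta subunit. Their mutant log2 changes ran between -0.24 ± 0.55 for Sp8 and 1.67 ± 0.78 for Cdca7l, and their WT changes between 0.57 ± 0.77 for Cdca7l and 3.16 ± 1.15 for Abcb5. Macc1 was the nearest to the threshold, with 895 ± 250.5 CPM in WT LPS+IL4 cells and 162 ± 107 CPM in WT resting cells (SD, n = 3 each, log2 change 2.46 ± 0.68, edgeR adjusted p = 0.0519). Sp8, a relative of Sp4, was the only mutant estimate below 0 (0.04 with TMM factors), with 699 ± 297 CPM in mutant LPS+IL4 cells and 823 ± 263 CPM in mutant resting cells (adjusted p = 0.951). Most ends assigned to these 2 genes lay outside them. Of 193 listed ends nearest Sp8, 5 were in its body, and of 249 nearest Macc1, 53. The Sp8 body itself had 0.0 CPM per kb in mutant resting cells.

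Per kb of gene body, where genes of different length can be set side by side, Zfp386 was the most densely read, at 47.6 ± 18.9 CPM per kb in mutant and 47.1 ± 16.2 in WT LPS+IL4 cells, against 28.5 ± 13.5 in mutant and 61.5 ± 10.5 in WT resting cells (SD, n = 3 each). Ncapg2 had 37.4 ± 11.4 CPM per kb in mutant and 27.1 ± 5.44 in WT LPS+IL4 cells, against 8.9 ± 4.86 in mutant and 9.18 ± 9.08 in WT resting cells. Rapgef5 had 18.5 ± 6.86 CPM per kb in mutant and 23.98 ± 5.27 in WT LPS+IL4 cells, against 7.73 ± 3.03 in mutant and 8.28 ± 3.17 in WT resting cells. Ptprn2 had 2.75 ± 1.12 CPM per kb in mutant and 2.98 ± 0.984 in WT LPS+IL4 cells, against 1.55 ± 0.228 in mutant and 0.7 ± 0.261 in WT resting cells. The body of Ptprn2 was thus long and read at a low density, and that of Rapgef5 at a higher one. The calls themselves were made on all ends nearest a gene. Of these, 592 of 759 lay in the body of Ptprn2 and 477 of 715 in that of Rapgef5.

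Without overlap between groups, 9 of the 15 genes were higher after activation in mutant cells, against 7.96% of all genes, and 11 in WT cells, against 11.9%. In mutant cells the groups overlapped for Vipr2, Wdr60, Sp8, Abcb5, Itgb8 and Tmem196. In WT cells they overlapped for Zfp386, Cdca7l, Itgb8 and Tmem196.

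Between genotypes 0 of the 15 genes passed at rest or with LPS and IL4 (edgeR, 0.0% of 653 genes in each). At an unadjusted p under 0.05 there were 2 at rest, Zfp386 and Sp8, against 8.27% of all genes, and 0 with LPS and IL4, against 2.91%. DESeq2 called 1 (2.6% of all genes) and 0 (0.153%). At rest Ptprn2 and Sp8 were higher and Zfp386, Esyt2 and Cdca7l lower in all 3 mutant than in all 3 WT libraries, against 7.5% and 4.13% of all genes in those directions. With LPS and IL4 no gene's groups were apart in either direction, against 4.9% and 4.29%. The median log2 difference with LPS and IL4 was -0.32, against -0.02 over all genes, with 14 of 15 below 0. Without mutant LPS+IL4 replicate 1 the median was -0.14, with 11 of 15 below 0.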

How the data were processed

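Contacts of the Eμ bait were measured by 4C-seq in 18 libraries, 3 in each of 6 groups. For resting and LPS+IL4 cells the authors deposited, per the file headers, raw counts of reads at 24 bp fragment-end intervals, listing only ends with a read (12 files). The 6 deposited LPS files are coordinate lists of covered ends with no other values. Mapping was to mm10, with Bowtie for the counted and Bowtie2 for the LPS libraries, per the submitters' processing notes. Versions, parameters and filters are not given in the sources used here. Counts carry no molecular identifiers, so they are of PCR products.

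Only ends over 5 kb from the bait were used. Reads were summed over 30 segments, over 100 kb windows and per nearest protein-coding RefSeq gene (windows and genes with a mean of at least 10 reads), and fitted over the 12 libraries with edgeR 4.0.16 (robust quasi-likelihood, group means, library size the chromosome 12 reads over 5 kb from the bait, no TMM factors) in R 4.3.3. Two-sided p-values were adjusted by Benjamini-Hochberg over all segments, windows or genes of the chromosome, with a threshold of 0.05. LPS libraries were fitted with limma 3.58.1 on log2 covered ends plus 1 over covered chromosome 12 ends, in windows with a mean of at least 5. Shares and ratios were tested by exact permutation over libraries. Zfp386 was nearest to 100.0 ends inside and 2314 outside the interval. Counter to the design as first written these were fitted apart, and keeping them together gave the same counts of calls. DESeq2 1.42.0 was an alternative, with the others given in the closing section. The fits were tested on simulated data. Python 3.11.15 did the rest.

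The interval, the lists and the tests were chosen with earlier results of these data known. Windows given in full were those called, the 5 with the highest mean and the first and last. Genes given in full were Vipr2 and Ptprn2, those called and those with the most reads.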

Additional observations from a re-analysis of the deposited data

How the results depend on the processing

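Of 416 recomputed values 369 kept their direction and their side of the threshold, or a count within 1.5 times. The rise of the telomeric share with activation kept both throughout, with log2 changes of 0.94 to 1.30 in mutant cells (0.80 to 1.14 without 1 library) and 1.05 to 1.38 in WT cells (1.08 to 1.17). The cause of the following moves was not tested. The sign turned for the ratio to the 3' side per listed end (-0.22), for the resting genotype difference without mutant resting replicate 2 (0.0069), and for the difference of the activation changes without mutant LPS+IL4 replicate 1 (0.0155) or without mutant replicate 1 on both days (0.13, added after seeing the data). Without 1 library the resting difference ran from -0.261 to 0.0069 and the difference of changes from -0.3203 to 0.0155. The genotype difference over 2 conditions ran from -0.315 to -0.1466 (exact permutation p 0.02 to 0.225). It passed without mutant resting replicate 1 (-0.31, exact p = 0.02) or mutant LPS+IL4 replicate 3 (-0.315, exact p = 0.045). Equal replicate numbers did not deviate together over windows (correlations -0.057 to 0.048), although within a genotype libraries of equal number belonged to the same library set on both days. The covered-end difference over 3 conditions ran from -0.1958 to -0.1094, and with a replicate block it was -0.16 (exact permutation p = 0.1, the smallest that form allows).

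Telomeric windows called in WT cells numbered 0 with TMM factors, capped ends, only the compared groups or 50 kb windows, 2 with all reads as library size or the library set as a block, 3 with DESeq2, 6 in 500 kb windows (added) and 19 with covered ends, and 0 without any 1 WT library. In mutant cells they numbered 1 with all reads or the replicate block, 2 with DESeq2, 4 in 500 kb windows, 12 with covered ends, and 0 to 1 without 1 library. The counts with covered ends are of 33 telomeric windows tested among 343 of the chromosome. At an unadjusted p under 0.05 covered ends gave 21 of the 33 in WT cells, against 121 of the 343. In mutant cells they gave 17, against 99. At rest DESeq2 called 4 windows and 1 gene between genotypes. Genes called in WT cells numbered 5 with DESeq2 or all reads, 13 with covered ends and 2 to 3 without 1 library. In mutant cells they numbered 2 with capped ends, 3 with TMM factors or all reads, 5 with DESeq2, 13 with covered ends, 0 without mutant replicate 1 on both days and 0 to 2 without 1 library. Changes of windows and genes had median SEs of 1.37 and 0.55 in WT cells, and the part of depth in them was not tested. Of the 41 windows 33 reached the minimum of 5 covered ends over the 12 libraries, but 16 in the resting libraries alone, so that the counts with covered ends favour windows high after activation. Restricting the difference of activation changes to the compared groups was not run, since all 4 groups enter it.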
